A study of Homo sapiens with 9 samples.

Results

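The genes described here are 10 genes of the MHC class II pathway of antigen presentation, of 20876 genes in the deposited transcript counts of SW480 cells. They are CIITA, CD74, CTSS, HLA-DQB1, HLA-DRB1, HLA-DRA, HLA-DPB1, HLA-DPA1, HLA-DMA and HLA-DMB. The genes were taken by name, and for each the transcript row was chosen by its total count over the 9 libraries, the highest being kept. The list was drawn up with earlier results of these libraries known, in which CD74 and HLA-DRB1 already stood out for the APC line, so the values of these 2 genes in the APC comparisons are a description and carry no test. SW480 is an established colorectal cancer line of human origin, without functional APC, a scaffold on which beta-catenin is tagged for breakdown. The group called APC was the line D2.15, SW480 with the pEF vector carrying myc-tagged APC and kept in G418. The group called CONTROL was the line R38.7, SW480 with the empty pEF vector, also kept in G418, and the group called SW480 was the parental line without G418. Polyadenylated RNA was sequenced from 3 parallel plates of each of these 3 lines, 72 h after 2 × 10⁵ APC cells or 3.35 × 10⁵ CONTROL or SW480 cells had been plated. Each group is therefore 1 cell line, and p-values measure the spread between its plates only.

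MHC class II molecules are pairs of an alpha and a beta chain (HLA-DR, HLA-DP and HLA-DQ) that carry peptides from endocytosed proteins to the cell surface for recognition by CD4+ T cells. The invariant chain, encoded by CD74, fills the groove of the newly made pair, the protease cathepsin S (CTSS) trims it, and HLA-DM (HLA-DMA with HLA-DMB) exchanges the remaining fragment for a peptide. CIITA, a co-activator that does not bind DNA itself, switches on the chain genes, CD74 and the HLA-DM genes. It acts through factors bound to the X and Y boxes of their promoters. Dendritic cells, macrophages and B cells carry class II molecules constantly, whereas epithelial cells, colonic ones included, acquire them mainly under interferon gamma.

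The X and Y boxes are shown because they are the control element shared by the chain genes, CD74 and the HLA-DM genes. Windows from 250 bases before to 50 bases after the start of the gene (RefSeq, GRCh38.p14, a later build than the hg19 of the counts) were found for 7 of the 10 members, and not used here for CIITA, CTSS and HLA-DRA. Both strands were searched for an X box pattern, whose matches are the first capitals in each stretch below, and for ATTGG, the core of the Y box. The X pattern was written for this purpose from general knowledge and was not checked against a published consensus, so the X box counts hold for that pattern only. It describes an element known from class II promoters, so a higher share of matches in the members' windows is largely built in and supports nothing. The X pattern occurred in 4 of the 7 members' windows (HLA-DRB1, HLA-DMA, HLA-DMB and HLA-DQB1), against 287 of all 35116 windows, or 0.817%. The Y letters alone occurred in 34.6% of all windows. Both on 1 strand, with a gap of at most 40 bases, stood in 3 of the 7 members' windows and in 12 of the 35116 (0.0342%), of which HLA-DRB5 was another class II gene. The CD74 window held the Y letters, 53 bases before the start on the opposite strand, and no match to the X pattern. The members' stretches read as follows, 5′ to 3′ on the gene's strand, with the X and Y letters in capitals.
HLA-DRB1 (chr6:32589880-32589937, minus strand, 89 to 32 bases before the start): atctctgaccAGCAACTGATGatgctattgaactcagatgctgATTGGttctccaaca
HLA-DQB1 (chr6:32666731-32666788, minus strand, 131 to 74 bases before the start): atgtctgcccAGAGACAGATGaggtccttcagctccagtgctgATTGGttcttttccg
HLA-DMA (chr6:32953162-32953220, minus strand, 123 to 65 bases before the start): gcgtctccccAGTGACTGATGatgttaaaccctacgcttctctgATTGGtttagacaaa
The boxes lay 22 bases apart in HLA-DRB1 and HLA-DQB1 and 23 bases apart in HLA-DMA. A match describes the letters and not a bound factor.

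Total counts, taking 1 row per gene, were 16454637 to 19355496 per library, so that the floor of 3 counts corresponded to 0.156 to 0.184 CPM (counts scaled to the library total after TMM normalisation). APC itself averaged 145 CPM in APC libraries, 47.9 CPM in CONTROL libraries and 49.3 CPM in SW480 libraries, a log2 fold change of 1.60 ± 0.05 (SE) over CONTROL, where reads of the line's own gene and of the introduced copy are not separated. By this value the APC group matched its label, whereas CONTROL and SW480 libraries cannot be told apart by it. Differences were widespread: edgeR's quasi-likelihood test, adjusted by Benjamini-Hochberg over 14253 genes at a threshold of 0.05, called 70.2% of genes in APC against CONTROL and 72.5% in APC against SW480. The median log2 fold change over all genes was -0.01 in each of these 2 comparisons.

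For most members on chromosome 6 the count table held the same RefSeq accession several times. CIITA, CD74, CTSS and HLA-DQB1 had an accession with 1 row each, while the other 6 members were listed in 5 to 8 rows each. Of the 290 accessions with 5 or more rows in the table, 70% had at most 9 counts over all libraries and rows, with a median of 1 count. Among accessions with 1 row the share was 17.4% and the median 2079 counts, and 273 of the 281 repeated accessions with a known chromosome were on chromosome 6. RPS18, a ribosomal protein gene that every cell uses, was listed 6 times with 5 counts over all rows and libraries, whereas 77 ribosomal protein genes with 1 row had a median of 131701. RPS18 and TUBB, a tubulin gene with 619 counts over 8 rows, were picked as examples after their values were seen. A low or zero count of a repeated gene is therefore what the table lists and not a measure of its RNA. This concerns HLA-DRB1, HLA-DRA, HLA-DPB1, HLA-DPA1, HLA-DMA and HLA-DMB, and the plot of counts by number of rows shows all 10 members.

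**Figure D1:**
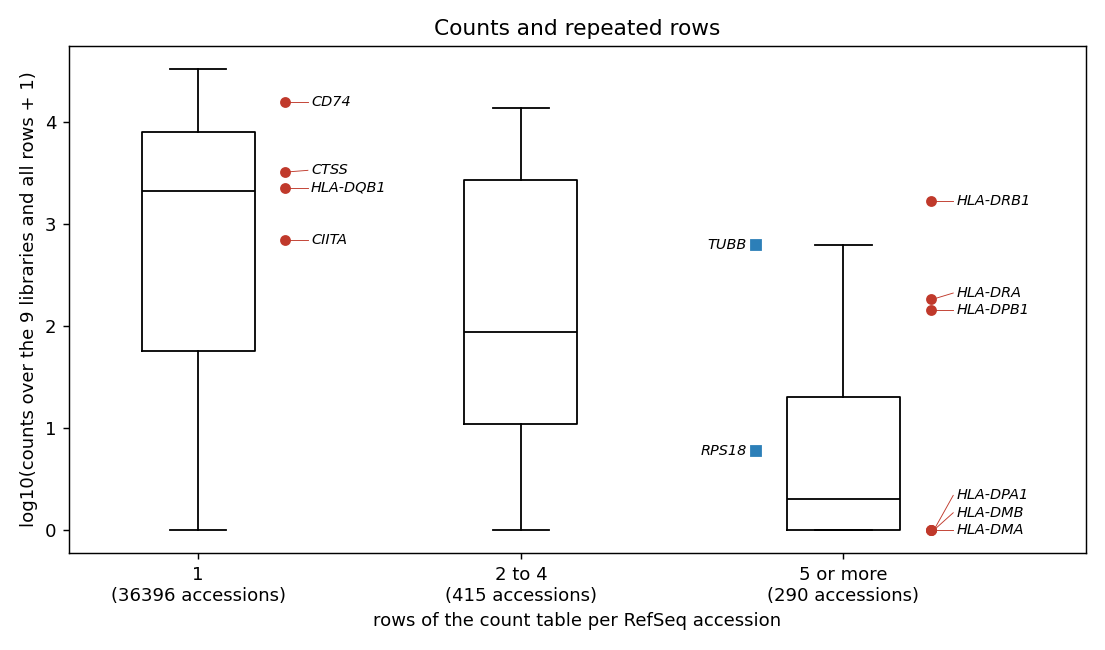
Counts over the 9 libraries and all rows of an accession, as log10 of the count plus 1, by the number of rows the count table gives that accession. Boxes span the quartiles with the median, whiskers the 5th to 95th percentile, red points are the class II members and blue squares RPS18 and TUBB; the median lies at 2079 counts for 1 row and 1 count for 5 or more, where HLA-DPA1, HLA-DMA and HLA-DMB sit at 0.

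In the APC line 7 of the 10 class II genes were higher than in both other lines, and the remaining 3 had no count in any library. The 4 members with undivided accessions were 16.4-fold (CTSS) to 51.3-fold (HLA-DQB1) higher in APC than in CONTROL, and 17.9-fold (CTSS) to 48.5-fold (CIITA) higher than in SW480. In each of the 7 genes every APC library lay above every CONTROL and every SW480 library. Of all genes tested, 34.8% were called higher in APC against CONTROL and 36.3% had every APC library above every CONTROL library, and 35.6% and 35.9% were so against SW480, so the direction alone sets the members little apart. By size, 2.39% of genes were called at least 8-fold higher against CONTROL and 2.22% against SW480. Without the APC libraries only CD74, HLA-DQB1 and CTSS would have passed the filter on low counts, so CIITA, HLA-DRB1, HLA-DRA and HLA-DPB1 entered the test through the group where they were high, and their calls support nothing. Both comparisons use the same APC libraries. In these bulk samples a larger share of cells with class II RNA and more RNA per cell cannot be told apart.

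**Figure D2:**
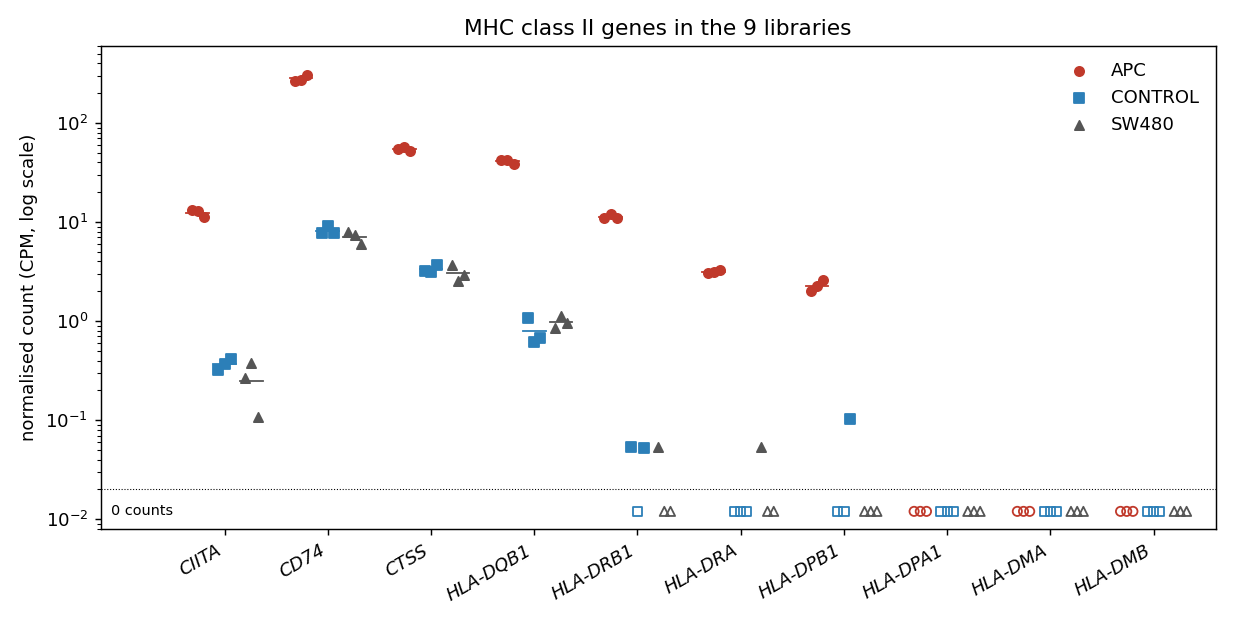
Normalised counts (CPM, log scale) of the 10 class II genes in each library, with APC left, CONTROL in the middle and SW480 right within each gene; short lines are group means where no library was at 0, and open symbols below the dotted line are libraries with 0 counts. APC libraries of CD74 lie at 268 to 305 CPM, above 7.68 to 9.21 CPM in CONTROL and 6.07 to 7.97 CPM in SW480.

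CIITA, the regulator of the class II chain genes, had 13.1, 13.0 and 11.3 CPM in APC plates. It had 0.322, 0.369 and 0.416 CPM in CONTROL and 0.269, 0.375 and 0.107 CPM in SW480. The APC libraries held 238, 225 and 194 reads, whereas no library of the other lines held more than 8, so its lower levels rest on few counts. The log2 fold change was 5.05 ± 0.20 (SE) over CONTROL and 5.60 ± 0.21 over SW480, given without a test because the gene passed the filter through APC. The table gave CIITA 1 row, which does not separate transcripts from its alternative promoters.

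CD74, the invariant chain, was the most abundant member, with 268, 274 and 305 CPM in APC, against 7.68, 9.21 and 7.74 CPM in CONTROL and 7.97, 7.34 and 6.07 CPM in SW480. It averaged 282 ± 20.1 CPM in APC, 8.21 ± 0.87 CPM in CONTROL and 7.13 ± 0.97 CPM in SW480 (SD, n = 3 each). The differences amounted to 34.5-fold over CONTROL and 39.5-fold over SW480. The CONTROL and SW480 libraries each still held 113 to 150 CD74 reads, so the gene was detected in every library of all 3 lines. CD74 RNA is made in a shorter and a longer form, and the longest row exceeded the next by 192 bases, or 11.4% of its length. Pooled over libraries, the counts in the longer row beyond those of the shorter one were 124 of 14819 in APC (0.837%, exact 95% interval 0.696% to 0.997%). They were 3 of 442 in CONTROL (0.679%, 0.140% to 1.97%) and 4 of 398 in SW480 (1.01%, 0.275% to 2.55%). The intervals of the 3 lines overlap, and in each line the longer form's own 192 bases took a share of counts far under their share of length.

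CTSS, cathepsin S, had 55.1, 57.2 and 51.9 CPM in APC, against 3.17, 3.13 and 3.69 CPM in CONTROL and 3.66, 2.52 and 2.95 CPM in SW480. It had the smallest fold of the 4 members with 1-row accessions, with a log2 fold change of 4.03 ± 0.09 (SE) over CONTROL and 4.17 ± 0.09 over SW480 (edgeR adjusted p = 1.55e-28 and 7.67e-29). Its longest row exceeded the next by 150 bases, which are 3.65% of the length. The counts beyond the shorter row were 210 of 2879 in APC (7.29%, exact 95% interval 6.37% to 8.31%). They were 11 of 181 in CONTROL (6.08%, 3.07% to 10.6%) and 12 of 170 in SW480 (7.06%, 3.70% to 12.01%), with intervals that overlap. These intervals cover counting error only.

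Among the chains that are members HLA-DQB1, the beta chain of HLA-DQ, was the one with an accession in 1 row. It had 42.0, 42.8 and 38.5 CPM in APC, against 1.07, 0.614 and 0.676 CPM in CONTROL and 0.862, 1.13 and 0.967 CPM in SW480. The log2 fold change was 5.68 ± 0.13 (SE) over CONTROL and 5.37 ± 0.12 over SW480 (edgeR adjusted p = 8.1e-29 and 9.1e-29). HLA genes resemble each other closely, the handling of reads that match several of them is not given in the sources used here, and the values of single HLA genes are uncertain to that extent.

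HLA-DRB1, the main DR beta chain, had 201, 209 and 187 counts in APC, against 1, 0 and 1 counts in CONTROL and 1, 0 and 0 counts in SW480. The ratio of summed counts per depth was 307 over CONTROL (exact 95% counting interval 84.7 to 2544) and 634 over SW480 (113 to 25080). Its stretch with the X and Y letters is the first shown above. The row used held 36.1% of the counts in all rows of its accession. Summed over those rows, APC had 552, 580 and 525 counts, in which 1 read may be counted more than once.

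HLA-DRA, the DR alpha chain, had 56, 54 and 56 counts in APC, 0 counts in each CONTROL library and 1, 0 and 0 counts in SW480. It was at least 18.9-fold higher in APC than in CONTROL, taking the floor of 3 counts per library, and its count ratio over SW480 was 176 (31.2 to 7005). HLA-DPB1, the DP beta chain, had 37, 39 and 44 counts in APC, 0, 0 and 2 counts in CONTROL and 0 counts in each SW480 library. The count ratio over CONTROL was 61.8 (16.7 to 516), and the gene was at least 14.2-fold higher in APC than in SW480. Single libraries decide the fitted values: without CONTROL replicate 3 the fitted log2 fold change of HLA-DPB1 over CONTROL was 8.37 in place of 5.71. Without SW480 replicate 1 the fitted values over SW480 were 8.83 in place of 6.99 for HLA-DRA and 10.68 in place of 8.84 for HLA-DRB1. HLA-DPB1 lost its call on the authors' gene-level RPKM table, which gives another row of the gene (log2 difference 0.05 with limma adjusted p = 0.0635 over CONTROL and 0.0608 over SW480, on log2(RPKM + 1)). That table lists HLA-DRA at 0 in every library, again from another row. The rows used here held 91.3% of the counts of the accession for HLA-DRA and 86.5% for HLA-DPB1.

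HLA-DPA1, the partner chain of HLA-DPB1, and HLA-DMA and HLA-DMB, the chains of the peptide exchange factor, had 0 counts in all 9 libraries and in every row. The accession used for each was listed 8 times in the table, and RPS18, listed 6 times, had 5 counts. HLA-DMA, whose promoter stretch is shown above, is among them, and these zeros give no level for any line.

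**Figure D3:**
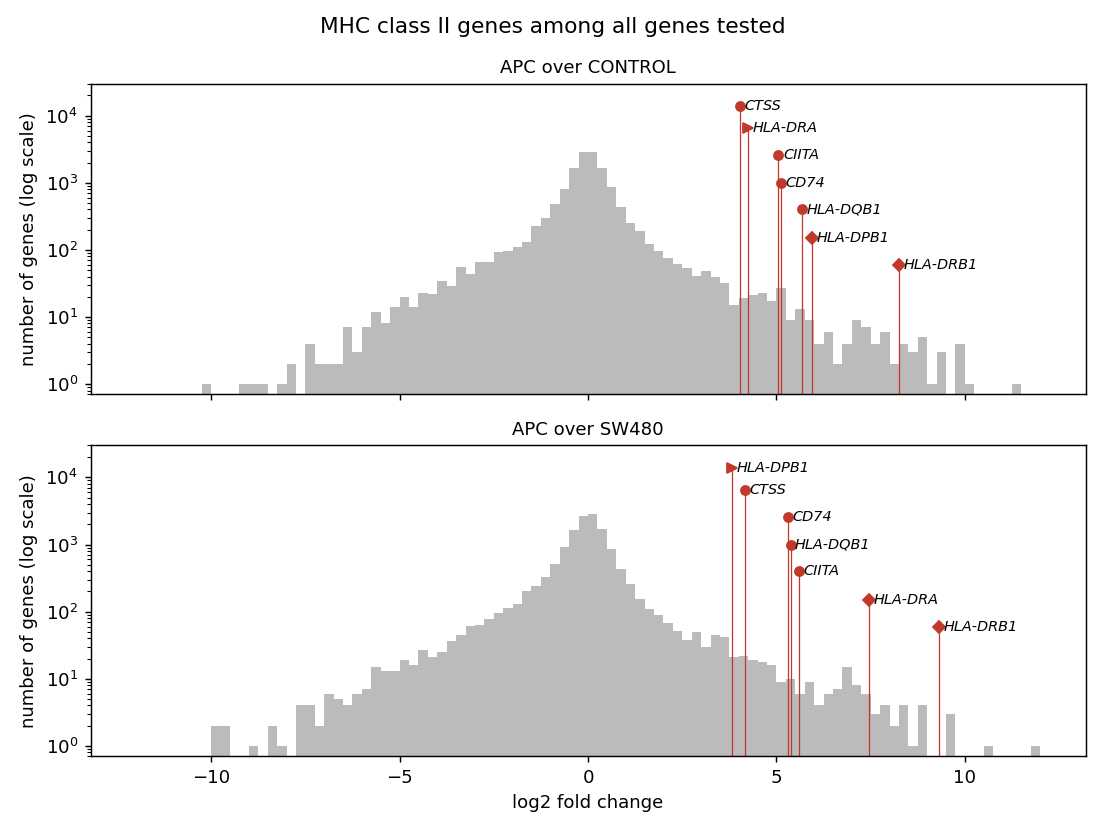
Fold change of the 7 class II genes with counts (red) among all 14253 genes tested (grey bars, number of genes on a log scale) for APC over CONTROL (top) and APC over SW480 (bottom), on the log2 scale. Circles are fitted values, diamonds count ratios and triangles lower limits against the floor of 3 counts per library; all 7 members lie to the right of most genes in both panels, with CTSS at 4.03 and 4.17.

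Ordered by fitted fold over CONTROL among the 14253 genes, CD74 was at rank 107, CIITA at 123, HLA-DQB1 at 80 and CTSS at 200. Over SW480 the ranks were 93 for CD74, 83 for CIITA, 89 for HLA-DQB1 and 161 for CTSS. Per length, the order of the RNA levels within the APC line was CD74, HLA-DQB1, CTSS, HLA-DRB1, CIITA, HLA-DRA and HLA-DPB1. CD74 had 138 to 160 RPKM (reads scaled to row length and library total) in the APC libraries, HLA-DQB1 had 20.3 to 22.6, CTSS 11.1 to 12.2 and HLA-DRB1 7.85 to 8.73. CIITA at 2.14 to 2.46 RPKM and HLA-DRA at 2.08 to 2.25 RPKM overlapped and had no set order, and HLA-DPB1 stood at 0.435 to 0.560 RPKM. The chaperone gene thus exceeded each listed chain per length, with the limit that the DR and DP chains were split over rows. Between APC plates the coefficient of variation was 7.12% for CD74, against 1.42% from counting alone, 7.92% for CIITA (6.76% from counting), 5.58% for HLA-DQB1 (3.73%) and 4.88% for CTSS (3.23%). For HLA-DRA, HLA-DRB1 and HLA-DPB1 it was below what counting alone gives. APC replicate 3 was the highest plate for CD74 and the lowest for CIITA, CTSS and HLA-DQB1.

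CONTROL and SW480 differ in the empty vector, G418 and cloning. APC and CONTROL are 1 clone each, and APC cells were plated at a lower number than CONTROL and SW480 cells. A difference particular to the APC clone, an effect of the plated number and an effect of APC itself therefore cannot be told apart. No member was called in CONTROL against SW480, where 50% of genes were called, 25.3% higher and 24.7% lower, and 28.5% had every CONTROL library above every SW480 library. All 7 members tested had libraries that overlapped. The 28.5% counts 1 direction only, and the share of genes with every CONTROL library below every SW480 library is not given here. The overlap of the members therefore has no full share of all genes beside it. Without the APC libraries only CD74, HLA-DQB1 and CTSS would have passed the filter. For CIITA, HLA-DRB1, HLA-DRA and HLA-DPB1 the low counts largely fix in advance that no call and no separation appear. CD74 averaged 8.21 ± 0.87 CPM in CONTROL and 7.13 ± 0.97 CPM in SW480 (SD, n = 3 each), a log2 fold change of 0.20 ± 0.12 (SE; edgeR adjusted p = 0.172). CTSS differed by 0.13 ± 0.16 (edgeR adjusted p = 0.497) and HLA-DQB1 by -0.31 ± 0.28 (edgeR adjusted p = 0.388). CIITA differed by 0.55 ± 0.48, given without a test because the gene passed the filter through APC. The SE of CIITA leaves room for a difference of more than 1 log2 unit, and HLA-DRB1, HLA-DRA and HLA-DPB1 had at most 2 counts per line in this comparison.

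Further class II chains had most of their counts in APC. Of 10 further chains 9 were in the count table and 2 passed the filter, which they could do only through the APC libraries, so their counts are given without a test. HLA-DQA1, the partner of HLA-DQB1, had 25, 21 and 26 counts in APC, 0 in each CONTROL library and 0, 0 and 1 in SW480. Against CONTROL it was at least 8.20-fold higher by the floor of 3 counts. HLA-DRB3, another DR beta chain, had 60 counts over all APC plates, 1 in CONTROL and 0 in SW480, a count ratio of 61.8 over CONTROL (10.7 to 2480). HLA-DRB4, HLA-DRB5 and the pseudogene HLA-DRB6 were below the filter with 30, 25 and 37 counts in APC and 0 in the other lines. An individual carries only some DRB genes, and reads of DR beta paralogs cannot be told apart here. HLA-DQA2, HLA-DPB2 and HLA-DOB were listed at 0 throughout, and HLA-DOA had 1 count in all. The accessions of these 4 genes are repeated 6 to 8 times in the RPKM table, so the limit on repeated rows applies to them too.

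The factors that sit on class II promoters showed no common direction. Of 12 tested, 4 were higher and 4 lower in APC against CONTROL, with a median log2 fold change of -0.05. Of all genes, 34.8% were higher and 35.4% lower in that comparison, so its counts do not set the list apart. Against SW480 2 were higher and 7 lower, with a median of -0.17, where 35.6% of all genes were higher and 36.9% lower. RFX5, a subunit of the X box complex, averaged 48.2 ± 0.5 CPM in APC, 38.3 ± 0.9 CPM in CONTROL and 38.3 ± 2.1 CPM in SW480 (log2 fold change 0.33 ± 0.05 over each; edgeR adjusted p = 1.38e-06 and 1.23e-06). Its partner RFXAP was higher too, by 0.56 ± 0.08 and 0.37 ± 0.08, whereas RFXANK did not pass the test (0.09 ± 0.06 and 0.06 ± 0.06). NFYA, a Y box subunit, was lower by 0.17 ± 0.05 and 0.18 ± 0.05 on the log2 scale. ATF1, of the CREB family, and KAT2B, an acetyltransferase, were lower as well, at 25.9 and 2.89 CPM in APC, against 52.4 and 6.31 CPM in CONTROL and 43.3 and 11.4 CPM in SW480.

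**Figure D4:**
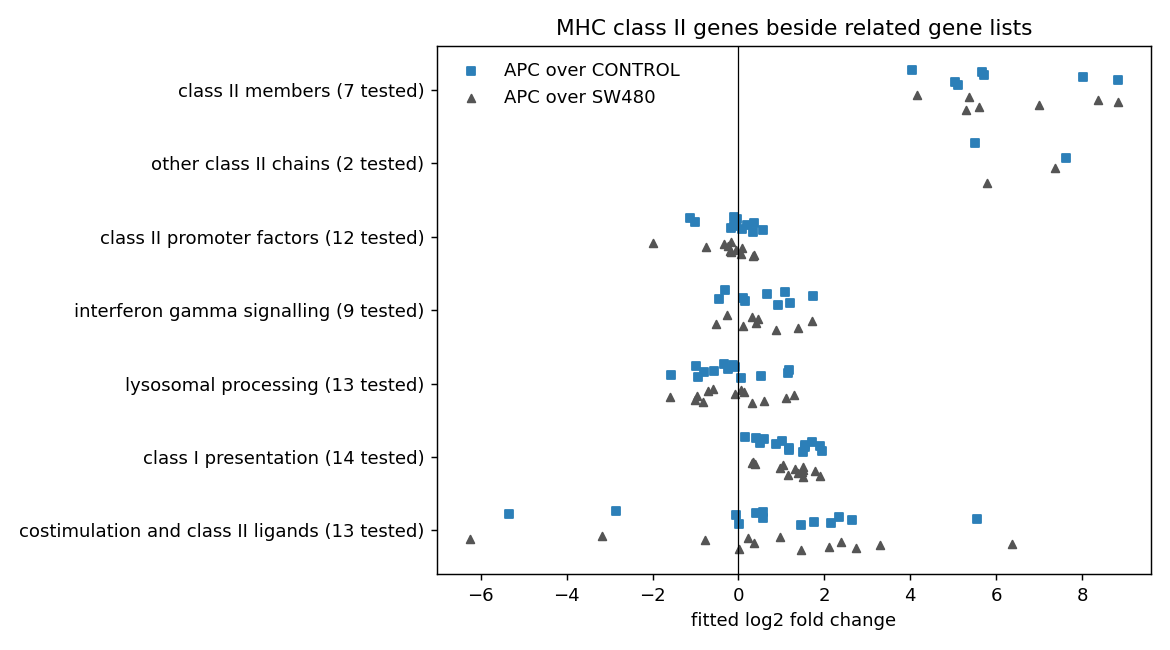
Fitted log2 fold changes of the tested genes of each list for APC over CONTROL (blue squares) and APC over SW480 (grey triangles); each point is 1 gene, and points of genes with 0 counts in a line depend on the fit and are no measure of size. The class II members lie from 4.03 to 8.84, while the promoter factors lie on both sides of 0 and the class I genes are all above it.

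In the interferon gamma pathway, the usual inducer of CIITA, 7 of 9 tested genes were higher and 2 lower in APC against CONTROL and likewise against SW480, with median log2 fold changes of 0.66 and 0.41. Of all genes, 34.8% were higher and 35.4% lower against CONTROL, and 35.6% and 36.9% against SW480. IRF1, a transcription factor that acts on a CIITA promoter, averaged 128 ± 1.1 CPM in APC, 38.3 ± 1.6 CPM in CONTROL and 39.1 ± 0.9 CPM in SW480, 3.33-fold and 3.26-fold (edgeR adjusted p = 1.98e-26 and 2.55e-26). The receptor genes IFNGR2, at 127 CPM in APC against 55.4 CPM in CONTROL and 48.9 CPM in SW480, and IFNGR1, at 46.0 CPM against 24.1 and 25.0 CPM, were higher as well. JAK2, a kinase of the receptor, was lower by 0.45 ± 0.11 and 0.52 ± 0.11 on the log2 scale, and PIAS1, a SUMO ligase, by 0.32 ± 0.07 and 0.28 ± 0.07. The gene for interferon gamma itself (IFNG) had no row in the count table and was listed at 0 RPKM in every library.

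Genes of class I presentation, which shows peptides of the cell's own proteins, all moved the same way: 14 of 14 tested were higher against CONTROL and against SW480, with median log2 fold changes of 1.19 and 1.36, where 34.8% and 35.6% of all genes were higher. HLA-B averaged 98.1 ± 15 CPM in APC, 25.5 ± 1.0 CPM in CONTROL and 26.2 ± 0.8 CPM in SW480, and NLRC5, the class I counterpart of CIITA, 18.3 ± 1.3, 6.29 ± 0.28 and 6.55 ± 0.55 CPM in the same order of lines. PSMB10, an immunoproteasome subunit, was 2.91-fold and 2.85-fold higher and TAPBPL, a peptide editor, 3.72-fold and 3.42-fold. The list again holds 10 genes with repeated rows, and HLA-F, TAP1 and PSMB8 were listed at 0. Lysosomal processing genes showed no common direction: 3 of 13 were higher and 7 lower against CONTROL and 5 higher and 6 lower against SW480, medians -0.25 and -0.08. Of all genes, 34.8% and 35.6% were higher and 35.4% and 36.9% lower, so these counts do not set the list apart. IFI30, the lysosomal thiol reductase, was higher at 53.4 CPM in APC against 23.6 CPM in CONTROL and 21.9 CPM in SW480, as were the proteases CTSD (365, against 164 and 169 CPM) and CTSV (33.6, against 23.4 and 22.4 CPM). CTSB was lower at 221 CPM in APC against 657 CPM in CONTROL and 448 CPM in SW480, and so were CTSL (26.5, against 50.7 and 46.8 CPM) and CTSH (3.13, against 5.38 and 9.45 CPM). CTSS was therefore not matched by its lysosomal relatives in size, and no test of that difference was made.

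Of the genes for costimulation and class II ligands, 9 of 13 tested were higher and 2 lower against CONTROL, and 8 were higher and 3 lower against SW480, beside 34.8% higher and 35.4% lower of all genes against CONTROL and 35.6% and 36.9% against SW480. PDCD1LG2, which encodes PD-L2, had 108 counts over all APC plates, 2 in CONTROL and 1 in SW480, a count ratio of 55.6 over CONTROL (15.0 to 465), given without a test because the gene passed the filter through APC. CD274, which encodes PD-L1, averaged 5.50 ± 0.20 CPM in APC, 0.865 ± 0.059 CPM in CONTROL and 0.555 ± 0.165 CPM in SW480. LGALS9 had 80 counts in APC and 16 each in CONTROL and SW480, and it too passed the filter through APC. PDCD1LG2 and LGALS9 are among the genes counted as higher, so that count is in part fixed by the filter. The costimulators CD80 and CD86 had 1 and 0 counts over all 9 libraries. CD4, the co-receptor that binds class II molecules, had 2 counts in APC, 98 in CONTROL and 192 in SW480, and CXCR4, a chemokine receptor, was lower at 16.1 CPM in APC against 117 CPM in CONTROL and 145 CPM in SW480.

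Since class II genes mark antigen-presenting cells, the markers of leukocytes and of epithelium are given beside them. Of 22 leukocyte markers, 15 were in the count table and 6 were tested, of which 5 were higher against CONTROL, and 3 higher and 2 lower against SW480, beside 34.8% of all genes higher against CONTROL, and 35.6% higher and 36.9% lower against SW480. Their summed level was 43.2 to 46.1 CPM in APC, 15.5 to 17.9 CPM in CONTROL and 27.8 to 28.8 CPM in SW480. PTPRC, the pan-leukocyte gene, and MS4A1, TYROBP, AIF1, CD163, CD1C and CLEC9A had no row in the count table and were listed at 0 RPKM in every library. LST1 was at 0 counts, and SPI1 and CD79B had 0 counts each in the 3 APC libraries together. Whether rows of these markers are repeated in the RPKM table was not examined, so their zeros are given only as listed. CORO1A was the largest of them, at 30.6 ± 0.8 CPM in APC, 7.94 ± 1.04 CPM in CONTROL and 13.8 ± 0.8 CPM in SW480. ITGAM, counted among the higher, had 54 counts in APC, 2 in CONTROL and 3 in SW480, and passed the filter through APC. CD68 had 6.01, 4.81 and 3.38 CPM in the same order of lines. LAPTM5 was higher in APC than in CONTROL but lower than in SW480, at 5.03 CPM in APC, 1.92 CPM in CONTROL and 7.41 CPM in SW480. LYZ was lower against SW480, at 0.264 CPM in APC, 0.270 CPM in CONTROL and 0.842 CPM in SW480. The epithelial gene KRT8 stood at 2971 ± 107 CPM in APC, 2883 ± 84.1 CPM in CONTROL and 2585 ± 153 CPM in SW480. Of 9 epithelial markers tested, 6 were higher and 2 lower against CONTROL, and 6 higher and 3 lower against SW480. Of all genes, 34.8% were higher and 35.4% lower against CONTROL, and 35.6% and 36.9% against SW480. The higher epithelial markers include a gene that passed the filter through APC. ESRP1, CLDN7 and CDH1 were higher in APC, at 88.2, 146 and 133 CPM, against 3.32, 7.21 and 8.73 CPM in CONTROL and 1.36, 5.96 and 7.23 CPM in SW480. CDX2 and KRT18 were lower, by 0.73 ± 0.08 and 0.37 ± 0.04 on the log2 scale against CONTROL. The part of CORO1A, ITGAM, CD68, CD14, LAPTM5, LYZ or the epithelial genes in the class II values was not tested.

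The genes whose profile over the 9 libraries was most like that of CD74 were SLC6A20, IL32, PLAU, ARHGDIB and WFDC2, with root mean square differences of the centred log2 CPM of 0.14, 0.25, 0.26, 0.26 and 0.28 among 10390 genes. CIITA followed at rank 8 (0.30), HLA-DQB1 at rank 14 (0.37), CTSS at rank 35 (0.56) and HLA-DRB1 at rank 46 (0.63). PLAU, the urokinase gene, averaged 286 ± 7.2 CPM in APC, 12.2 ± 0.2 CPM in CONTROL and 8.97 ± 0.31 CPM in SW480. IL32, a cytokine gene, averaged 78.8 ± 1.3, 3.02 ± 0.17 and 2.29 ± 0.33 CPM in the same lines. The nearest profile, that of SLC6A20, an amino acid transporter, reads 16.0 ± 0.6 CPM in APC, 0.337 ± 0.086 CPM in CONTROL and 0.269 ± 0.001 CPM in SW480. The log2 CPM were taken with a prior count of 2, which makes the differences of genes with few counts in CONTROL and SW480 smaller. The order of likeness therefore depends in part on abundance. These likenesses describe 9 libraries that fall into 3 lines and share their depth.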

How the data were processed

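Whole-number counts per RefSeq transcript row were deposited without normalization, per the file headers and the values, and the deposited RPKM tables were made by the authors: RPKM equalled the count over the deposited row length and 1 constant per library for 100% of rows (relative tolerance 0.0001). Per the submitters' processing notes, Trimmomatic, TopHat and GATK were used with build hg19; no source used here names the counting tool, its strand setting or the annotation release. The length column, deposited as another value per row, was used for levels per length only.

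The 39276 rows of 20876 genes were reduced to the row with the highest total count per gene, since a read can be counted in several rows. Gene names altered to dates (65 rows) were repaired by accession in 62. Genes were tested in R 4.3.3 with edgeR 4.0.16 (filterByExpr, TMM, robust quasi-likelihood fit of all 9 libraries), which kept 14253 genes; p-values were adjusted by Benjamini-Hochberg over all of them. SE is the log2 fold change over the square root of F. CPM are normalised to TMM-scaled totals. Where the lower group had 1 to 3 counts, the ratio of counts is given with an exact 95% interval, and where it had 0, a limit against 3 counts per library; both cover counting error only. Plates of 1 line differed beyond sampling noise (chi-square per degree of freedom 1.36 to 5.61) and were kept as separate samples. The fit was tested on simulated data.

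The members and the gene lists were chosen with earlier results of these data known. Named were the 10 members; from each list up to 3 genes per direction called the same way against CONTROL and SW480, by the smaller of both fold changes, with a mean of at least 1 CPM; IRF1, NLRC5, RFX5 and HLA-DQA1; and the 5 genes nearest to CD74 (prior count 2, mean of at least 10 CPM). Not every gene this rule names is reported here. Other names (RPS18, TUBB, APC, KRT8, RFXANK, CD80, CD86, the DRB genes, CD14, LAPTM5, LYZ and markers at or near 0) were added after their values were seen. Alternatives were DESeq2 1.42.0, RLE or no scaling factors, no filter, a minimum fold of 2, counts summed over transcripts, limma 3.58.1 on log2(RPKM + 1) and log2(RPKM + 0.1), fits to the 6 libraries compared, a replicate block and leaving out each library; summing the rows of an accession was chosen after seeing the data.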

Additional observations from a re-analysis of the deposited data

How the results depend on the processing

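The number of class II genes called was 7 in both APC comparisons under 20 of the 21 alternatives each, a count that the choice of members and the filter largely fix. The authors' gene-level RPKM table, which lists HLA-DRA at 0 and so leaves 6 members to test, gave 5 in both, without HLA-DPB1. In CONTROL against SW480 it was 0 under all 21, of which the fit of 6 libraries tested only 3 members. For CIITA, HLA-DRB1, HLA-DRA and HLA-DPB1 the low counts in these lines largely fix that result. No member changed direction in the APC comparisons; in CONTROL against SW480 HLA-DRB1, which was not called, changed sign on the gene-level table (-0.02 in place of 0.82). Leaving out each library in turn gave 7 to 7, 7 to 7 and 0 to 0 members, and 9447 to 10260, 9913 to 10386 and 6185 to 7299 genes called, over CONTROL, over SW480 and for CONTROL over SW480. A minimum fold of 2 cut the genes called to 1940, 2050 and 223, from 10004, 10333 and 7130, since it asks for a larger change. Adding 1 to RPKM compresses low genes, and CIITA then differed by 1.64 and 1.67 on the log2 scale. Replicate numbers did not pair the plates: 1 of 9 correlations of equally numbered deviations exceeded 0.1 (range -0.22 to 0.35, against -0.23 to 0.21 for other numbers). With a replicate block 9991, 10295 and 7109 genes were called, and 7, 7 and 0 members. The low counts of HLA-DRA, HLA-DPB1 and CIITA in CONTROL and SW480 limit the size of their folds. The repeated rows limit every statement on the chains among the 10 members other than HLA-DQB1.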
